A study of Mus musculus with 8 samples.

Results

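Transcript levels of 36 genes of the glia of the dorsal root ganglion (DRG) were described, out of 55414 genes counted in each library. The members were taken by name as known genes of Schwann cells, of the satellite glia that wrap neuronal cell bodies and of myelin. Each of the 36 matched 1 gene ID and passed the filter on low counts, as did 17721 genes in total. The DRG, which house the somatosensory neurons and their glia, came from mouse embryos at E18.5, and RNA was measured by bulk RNA-seq in 4 libraries per genotype. AD1 OE embryos were AdvillinCre/+;Rosa26Dach1/+ and Control embryos were Advillin+/+;Rosa26Dach1/+, so both carried 1 copy of the Rosa26 allele, in which a floxed stop precedes Dach1 and an IRES-EGFP, on a mixed C57Bl/6J and CD1 background. The Cre was expressed from the Advillin locus, which is active in sensory neurons. According to the study, Dach1 in AD1 OE embryos was first restricted as usual and then came back in all these neurons. The question was which transcripts of the ganglion differ with this late, broad Dach1. AD1 OE also differed from Control in the Cre, in the EGFP that comes with Dach1 and in a lower Avil. The design cannot tell these apart from Dach1. Litters, and the number of embryos per library, were not given for these samples, so p-values measure the spread between libraries.

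Glia of the DRG descend from the neural crest under the control of Sox10 and pass through a precursor and an immature stage before they become myelinating Schwann cells, non-myelinating Schwann cells or satellite glia. Neuregulin on axons signals through the Erbb2 and Erbb3 receptor pair to keep these cells alive and dividing, and Sox10 with Pou3f1 and Pou3f2 then turns on Egr2, which drives the genes of compact myelin. Satellite glia keep an immature-like profile with glutamine synthetase, glutamate transporters and fatty acid binding proteins. In bulk ganglia, fewer cells of a type and less RNA per cell cannot be told apart.

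The libraries held 22339059 to 44025625 counts, and the members took 0.401% to 0.466% of them. Dach1 was 95.9 ± 5.28 CPM (counts divided by TMM-scaled library totals, mean ± SD, n = 4) in AD1 OE and 32.6 ± 1.64 in Control, and Avil, the gene at which Cre was inserted, was 464 ± 12.03 and 892 ± 35.1, both in the direction of the labels. From Xist and Y-linked genes, 3 AD1 OE libraries were male and 1 (replicate 3) female, and 3 Control libraries were female and 1 (replicate 4) male. AD1 OE replicate 2 and Control replicate 1 were the shallowest libraries and held the most glial RNA of their groups, by the summed CPM of the members. The labels name the tissue as DRG, and its glia were checked with Sox10, at 104 to 119.8 CPM in AD1 OE and 99.9 to 126 in Control. Its neurons were checked with 12 pan-neuronal genes, which summed to 13241 to 14071 and 13748 to 14328 CPM.

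Between the genotypes, 1 of the 36 genes passed the test and 35 did not. Dhh, the Schwann cell hedgehog ligand, was lower in AD1 OE at 57.9% of its Control level. A gene was called at an adjusted p under 0.005 with an absolute log2 fold change over 0.25 in edgeR's quasi-likelihood test, which called 2.57% of all tested genes, 1.78% lower and 0.784% higher. The median log2 fold change (AD1 OE minus Control) was -0.002 over the members and 0.002 over all tested genes, with 19 members negative and 17 positive. An unadjusted p under 0.05 was met by 8 members, against 18.6% of all tested genes. Of those 8, 6 belonged to the 9 genes grouped here as immature and satellite glial genes. The group also holds Gjc3 of Schwann cells and Gas7, which neurons make too. Where the adjusted p alone had to be under 0.05, whatever the size of the change, 6.55% of all tested genes passed and Dhh was again the 1 member.

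**Figure D1:**
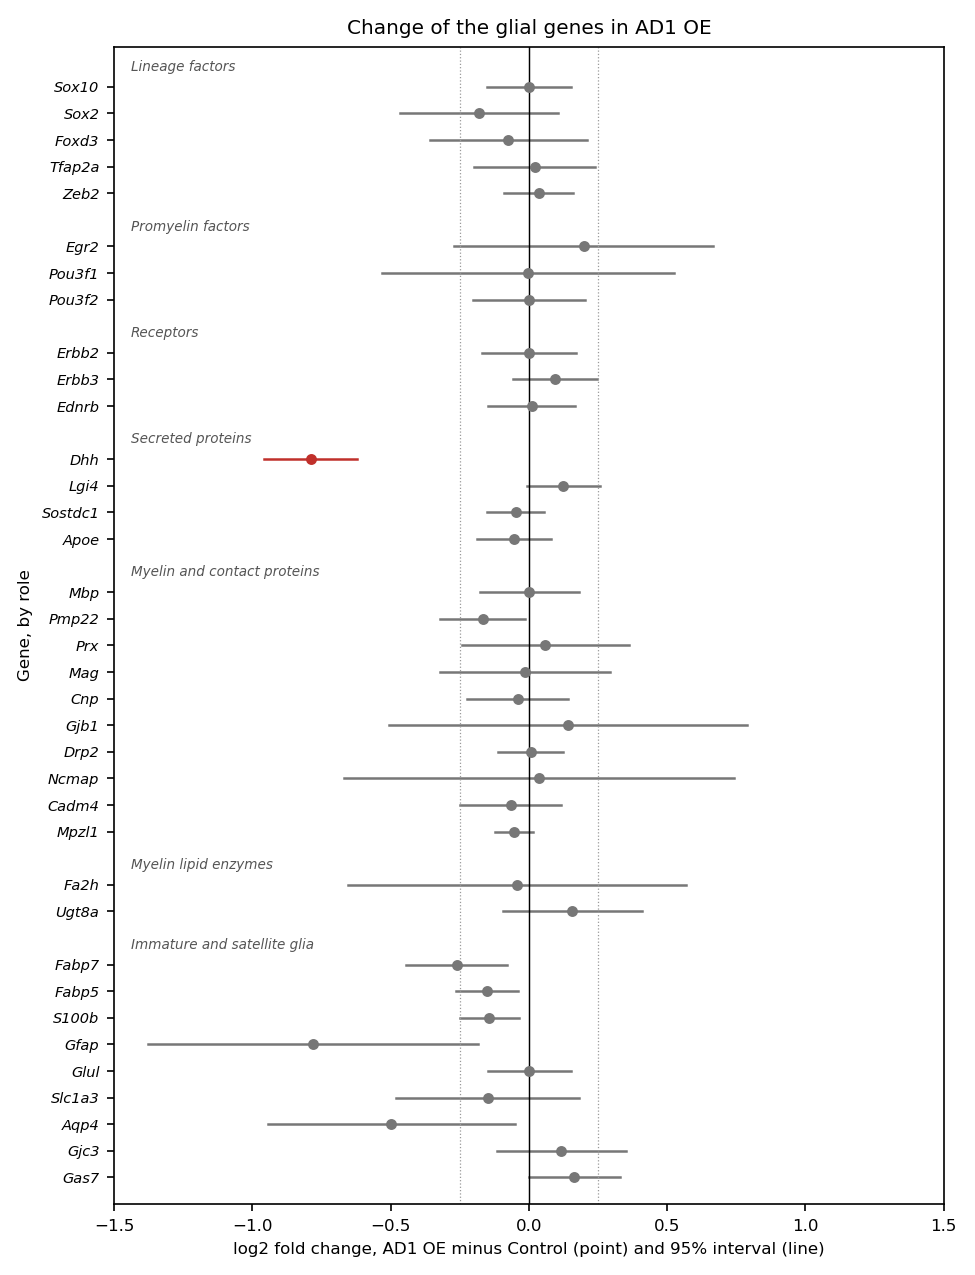
Log2 fold change of AD1 OE minus Control (horizontal axis) for each of the 36 glial genes, grouped by role, with points for the estimate and lines for the 95% interval from edgeR; dotted lines mark ±0.25. Dhh (red) at -0.79 is the gene that passed the test, and the intervals of Gjb1, Ncmap, Fa2h, Pou3f1 and Gfap are wide.

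Levels were compared between genes per kilobase (kb) of principal transcript, to place the ganglia in the sequence of glial maturation. In Control, Apoe, a lipid carrier made by satellite and immature glia, stood highest at 725 ± 58.2 CPM per kb (n = 4), followed by Mbp at 447 ± 46.5, Fabp7 at 335 ± 48.7 and Pmp22 at 250.4 ± 16.4. The place of Mbp rests on its short principal transcript, since it came to 33.7 CPM per kb over all its annotated exons, most of which belong to longer transcripts of the locus. The ranges of Mbp and Fabp7 overlapped, whereas Apoe lay above and Pmp22 below both. Genes of compact and non-compact myelin were measured at E18.5 beside genes of immature glia. Mag, a protein of the inner myelin face, was 7.21 ± 1.24 CPM per kb and Prx, a Schwann cell scaffold of the outer myelin face, 17.8 ± 2.41. Egr2 was 3.11 ± 0.465, between Gas7 at 3.74 ± 0.215 and Pou3f2 at 2.80 ± 0.173, and its range overlapped theirs. At the bottom were Pou3f1 at 1.55 ± 0.487, Ncmap, a late non-compact myelin protein, at 1.44 ± 0.624, and Gjb1, the gap junction protein of mature myelin, at 0.316 ± 0.113. Gjb1, with 6 to 22 counts per library, was the only member under 1 CPM on average. Among 29 further glial genes, those of high level in Control per kb included Ngfr at 321 ± 14.4, which sensory neurons also express, and Adam22, the Lgi4 receptor on axons and glia, at 91.6 ± 4.16. The place of Adam22 rests on its short principal transcript. Over all its annotated exons it came to 17.7 CPM per kb, at rank 13 of the 29.

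**Figure D2:**
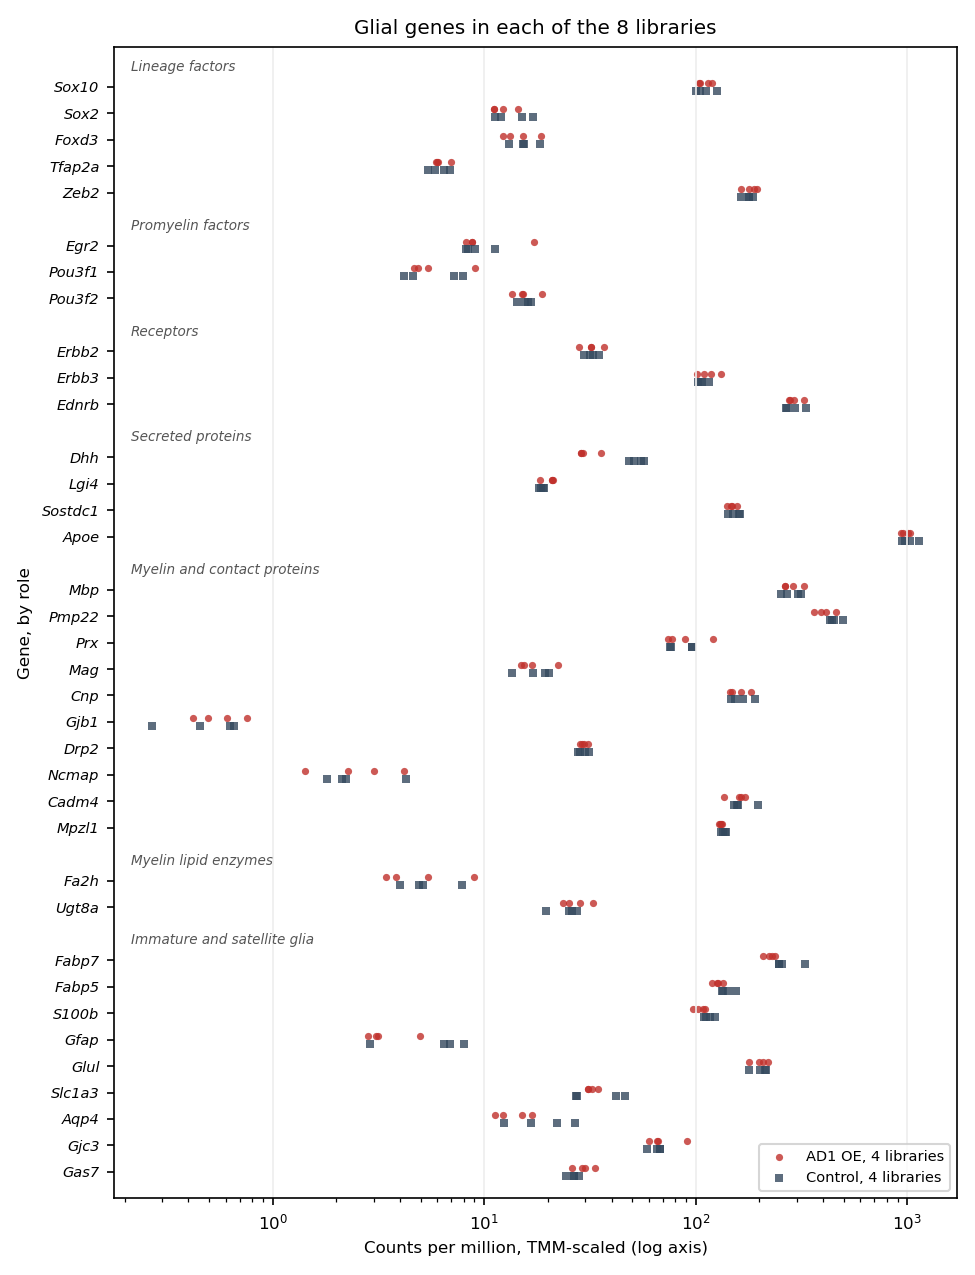
Level of each of the 36 glial genes in CPM (log axis, TMM-scaled) in every library, grouped by role, with AD1 OE libraries as circles and Control libraries as squares. Levels run from under 1 CPM for Gjb1 to 1133 CPM for Apoe, and the groups are apart for Dhh and, narrowly, for Fabp7.

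The factors of the glial lineage did not pass the test in either direction (0 of 5 called, 0 at an unadjusted p under 0.05, and 0 by DESeq2 or limma-voom). Sox10, the factor that defines the lineage, was 105, 114, 119.8 and 104 CPM in AD1 OE replicates 1 to 4 and 126, 99.9, 112 and 105 in the Control replicates, and the ranges overlapped. Its 95% interval ran from -0.15 to 0.15 in log2 fold change around equal means. Zeb2, a repressor that lets Schwann cells leave the immature state, was 181 ± 14.1 CPM against 177 ± 10.2 (interval -0.09 to 0.16). Sox2, which holds glia immature and counters myelin genes, was 11.1, 12.3, 14.5 and 11.1 CPM in AD1 OE and 17.1, 11.99, 11.2 and 15.02 in Control, with the highest values in Control replicates 1 and 4. Its log2 fold change was -0.18 (SE 0.13), and 0.071 without those libraries. Leaving out the highest Control libraries was bound to raise it. Foxd3, a crest factor that persists in early glia, and Tfap2a, a crest factor shut off as precursors become immature Schwann cells, gave -0.07 (SE 0.13) and 0.02 (SE 0.10). Per kb, Tfap2a averaged 2.16 ± 0.233 CPM in Control against 6.69 ± 0.933 for Foxd3, and AD1 OE replicate 3 was highest for both within its group.

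The promyelin factors did not separate the genotypes (0 of 3 called, 0 at an unadjusted p under 0.05, and 0 by DESeq2 or limma-voom). Egr2, the main driver of myelin genes, was 8.73, 17.2, 8.19 and 8.78 CPM in AD1 OE and 9.04, 8.19, 8.41 and 11.2 in Control. AD1 OE replicate 2 stood apart at a level no other library reached, and the remaining AD1 OE libraries sat near the low end of the Control range. The log2 fold change was 0.20 (SE 0.21, adjusted p = 0.686) with that library and -0.11 without it. Pou3f1, which marks the promyelin stage and falls once myelin forms, was 5.45, 9.04, 4.86 and 4.64 CPM in AD1 OE and 7.96, 4.17, 4.60 and 7.17 in Control, high in AD1 OE replicate 2 and in Control replicates 1 and 4. Its interval of -0.53 to 0.52 covers changes in both directions. Pou3f2, its close relative, had a narrower interval of -0.20 to 0.20 at 15.7 ± 2.203 and 15.7 ± 0.968 CPM.

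The receptors lay close together in the genotypes (0 of 3 called, 0 at an unadjusted p under 0.05, and 0 by DESeq2 or limma-voom). Erbb3, which binds neuregulin, was 115 ± 13.1 CPM in AD1 OE and 108 ± 5.68 in Control, with an interval of -0.06 to 0.25. Erbb2, its signalling partner, was 32.2 ± 3.53 and 32.2 ± 2.19 (interval -0.17 to 0.17). Ednrb, the endothelin receptor that times Schwann cell differentiation, was 293 ± 21.9 and 291 ± 29.6 (interval -0.15 to 0.17). Per kb, Ednrb was the most abundant of the 3 in Control at 70.8 ± 7.21 CPM per kb, then Erbb3 at 17.9 ± 0.944 and Erbb2 at 6.43 ± 0.436.

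Of the 4 secreted proteins, 1 fell. Dhh (ENSMUSG00000023000, on chromosome 15) signals from Schwann cells to the mesenchyme that forms the perineurium around the nerve. It was 28.8, 35.8, 28.7 and 29.4 CPM in AD1 OE replicates 1 to 4 and 56.9, 54.97, 48.4 and 51.3 in the Control replicates. The groups did not overlap, and the highest AD1 OE library, replicate 2, lay below the lowest Control library. The means of 30.7 ± 3.42 and 52.9 ± 3.81 CPM (n = 4 each) differed by -0.79 in log2 (SE 0.08), and edgeR's adjusted p was 5.74e-05. Dhh was called in each of the 19 other fits, with log2 fold changes of -0.87 to -0.75 and adjusted p between 1.40e-20 and 0.00139, and leaving out Control replicates 1 and 4 gave -0.75 and sex as a term -0.80. Within the genotypes its spread was modest, at a pooled coefficient of variation of 8.66%.

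Exons of Dhh share 546 bases with those of Rhebl1 on the same strand and 1107 bases with those of Gm49442 on the other, and whether the counting used the strand was not stated. Rhebl1, a small GTPase gene, was 21.9, 24.9, 24.7 and 25.8 CPM in AD1 OE and 23.6, 23.8, 25.4 and 24.6 in Control, with no separation of the groups (log2 fold change -0.005, SE 0.06). Gm49442 was 1.00 and 1.14 CPM. The promoter of Dhh is shown because Dhh was the member that changed; it spans 250 bases before to 50 after the annotated start, at chr15:98898491-98898790 on the minus strand of GRCm38.p6 (RefSeq), a different build from the GRCm39 of the counts.
Dhh promoter: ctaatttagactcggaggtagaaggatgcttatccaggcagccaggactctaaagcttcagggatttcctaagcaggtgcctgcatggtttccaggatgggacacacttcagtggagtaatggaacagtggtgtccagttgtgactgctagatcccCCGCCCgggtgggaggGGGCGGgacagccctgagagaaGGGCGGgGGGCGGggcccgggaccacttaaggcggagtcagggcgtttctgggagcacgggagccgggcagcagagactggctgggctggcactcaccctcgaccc
Capitals mark the 4 matches to a GC box (GGGCGG on either strand), a motif held by 35.9% of 27025 RefSeq promoters of this length and by 12 of the 25 members that had an entry. The window of Dhh held no match to SOX letters (ACAAAG or ACAATG, in 28.8% of promoters and 6 of 25 members), to the octamer ATGCAAAT of POU factors (1.75%, and 1 of 25, Prx) or to the EGR letters GTGGGCG (8.04%, and 2 of 25, Cadm4 and Egr2), each searched on both strands; a GC box and an EGR match can share bases.

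Hedgehog signalling was then read from 16 genes, a list chosen after Dhh had been seen to fall. edgeR and limma-voom called 1 of them, Scube2, and DESeq2 called 2, Scube2 and Boc (unadjusted p under 0.05 in 4, against 18.6% of all tested genes). Scube2, which helps to release hedgehog ligands, was 3.21, 3.83, 4.05 and 4.21 CPM in AD1 OE and 5.04, 6.91, 6.72 and 6.61 in Control, with no overlap (log2 fold change -0.74, SE 0.13, adjusted p = 0.00336), but it was not called without Control replicates 1 and 4. Ptch1 and Gli1, the receptor and the transcription factor that hedgehog signalling itself induces, were 96.2 ± 4.13 against 90.8 ± 2.15 CPM and 35.1 ± 3.54 against 34.1 ± 3.66, with log2 fold changes of 0.08 (SE 0.04) and 0.05 (SE 0.09). Hhip, a target that binds the ligand, gave -0.16 (SE 0.12). The co-receptor Boc gave 0.26 (SE 0.05, adjusted p = 0.0115) and lay higher in AD1 OE with no overlap. Shh, a hedgehog ligand that neurons make, was 6.69, 7.48, 7.84 and 8.02 CPM in AD1 OE and 8.73, 9.19, 8.61 and 8.70 in Control, with no overlap, and did not pass the test (-0.23, SE 0.08, adjusted p = 0.117).

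**Figure D3:**
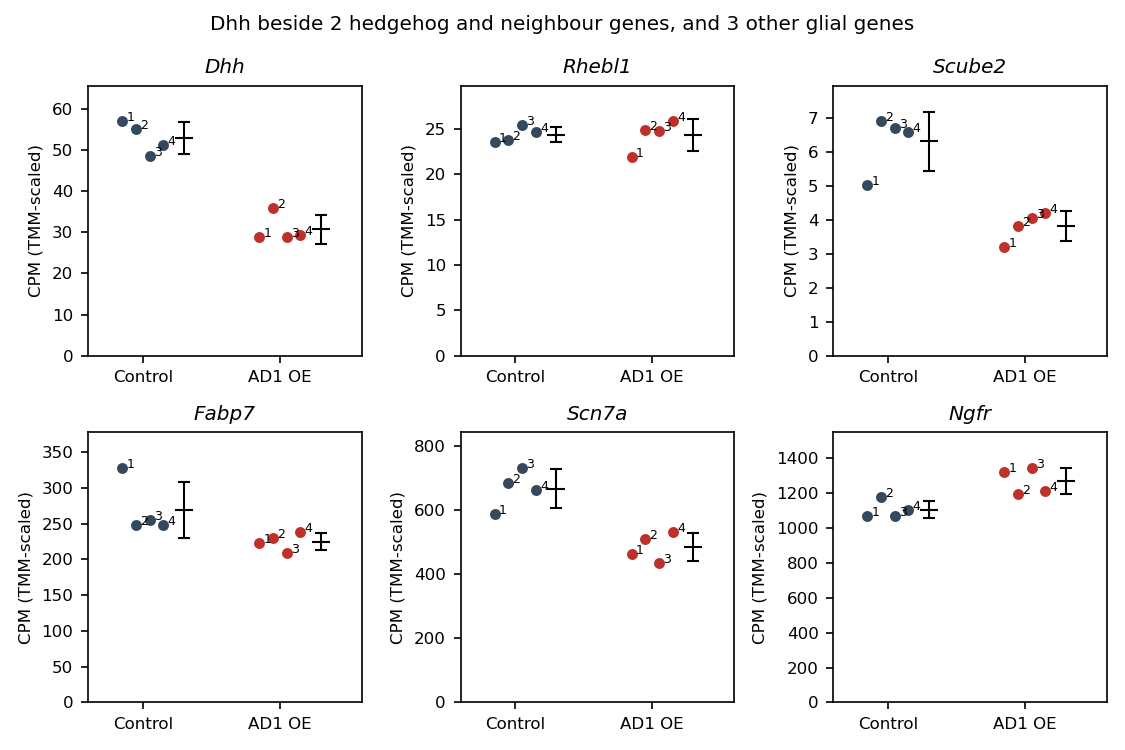
CPM (TMM-scaled, axis from 0) of Dhh, Rhebl1, Scube2, Fabp7, Scn7a and Ngfr in each library, with the replicate number beside each point and the mean ± SD of the 4 libraries as a bar. Dhh, Scube2, Fabp7 and Scn7a lie lower in AD1 OE with no overlap, and Ngfr lies higher with no overlap. Rhebl1, whose exons overlap those of Dhh, lies at the same level in both groups.

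The other secreted proteins did not pass the test. Lgi4, a glial ligand needed for Schwann cell differentiation, was 20.98, 21.3, 18.4 and 20.98 CPM in AD1 OE and 19.2, 19.03, 18.1 and 18.6 in Control, and AD1 OE replicate 3 was the one library of its group within the Control range (log2 fold change 0.13, SE 0.06, adjusted p = 0.299). Its exons share 2059 bases with those of Fxyd3, a gene on the other strand that was at 1.18 and 1.09 CPM. Sostdc1, a secreted inhibitor of BMP and Wnt signals, was 148 ± 6.99 and 153 ± 8.89 CPM. Apoe was 982 ± 46.8 and 1020.1 ± 81.96, and its interval of -0.19 to 0.08 bounds a change in either direction.

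None of the 10 structural genes of myelin and axon contact was called by edgeR, DESeq2 or limma-voom, and 1 had an unadjusted p under 0.05. That gene, Pmp22, a tetraspan protein of compact myelin, was 392, 459, 362 and 413 CPM in AD1 OE and 451, 432, 443 and 499.7 in Control, and AD1 OE replicate 2 lay inside the Control range (log2 fold change -0.17, SE 0.07, adjusted p = 0.227). With sex as a term it gave -0.27 (adjusted p = 0.0177). Mbp, the main cytoplasmic protein of compact myelin, was 287, 326, 265 and 264 CPM in AD1 OE and 315, 252, 269 and 304 in Control, evenly mixed between the genotypes, with an interval of -0.18 to 0.18. Prx was 88.8, 120.4, 77.2 and 74.1 CPM in AD1 OE and 96.4, 76.7, 75.7 and 96.4 in Control, highest in AD1 OE replicate 2, and its log2 fold change of 0.06 (SE 0.14) became -0.10 without that library. Mag was 17.4 ± 3.35 CPM in AD1 OE and 17.6 ± 3.01 in Control, a log2 fold change of -0.01 (SE 0.14). Cnp, a myelin enzyme of the cytoplasmic channels, was 160.0 ± 17.4 and 165 ± 18.8 CPM (-0.04, SE 0.08).

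Ncmap was 3.03, 4.19, 1.42 and 2.27 CPM in AD1 OE and 1.80, 2.21, 2.12 and 4.26 in Control, and its pooled coefficient of variation of 43.2% was the largest among the members. Gjb1 ranged from 0.421 to 0.757 CPM in AD1 OE and from 0.270 to 0.654 in Control, and neither interval excluded a change of 0.25 in either direction. Drp2, a partner of Prx at the outer myelin surface, was 29.5 ± 1.06 and 29.4 ± 1.57 CPM, and Cadm4, an adhesion protein facing the axon, 158 ± 15.1 and 166 ± 20.4. Mpzl1, a widely expressed membrane protein, had the smallest spread at 2.12% and an interval of -0.12 to 0.02. The lipid enzymes gave 0 of 2 called, with 0 at an unadjusted p under 0.05 and 0 by DESeq2 or limma-voom. Fa2h, which hydroxylates the fatty acids of myelin galactolipids, was 5.40, 8.96, 3.44 and 3.81 CPM in AD1 OE and 5.13, 4.92, 4.01 and 7.82 in Control, and Ugt8a, which makes galactosylceramide, was 27.4 ± 4.01 and 24.6 ± 3.46.

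The immature and satellite glial genes gave 0 of 9 called by edgeR, DESeq2 or limma-voom. Of them, 6 had an unadjusted p under 0.05, against 18.6% of all tested genes, and 5 of the 6 were negative. Genes measured in the same libraries are not independent of each other, so these are not separate results. Fabp7, a fatty acid binding protein of immature and satellite glia, was 223, 229, 209 and 238 CPM in AD1 OE and 328, 247, 255 and 248 in Control. The groups did not overlap, as in 13.0% of all tested genes (7.26% lower and 5.69% higher in AD1 OE), and Dhh was the other member of which this held. Control replicate 1 stood far above the rest, and the other Control libraries lay between 247 and 255 CPM, just above the highest AD1 OE library. The log2 fold change was -0.26 (SE 0.08, adjusted p = 0.101) and -0.15 without Control replicate 1. Fabp5, a related protein, was 127, 127, 119.6 and 134 CPM against 155, 134, 133 and 142 in Control, and S100b, a calcium-binding protein of glia, 102, 111, 97.3 and 108 against 112, 116, 110.0 and 123, with both pairs of ranges overlapping. They gave -0.15 (SE 0.05, adjusted p = 0.120) and -0.14 (SE 0.05, adjusted p = 0.131). Fabp7 and S100b are 2 of the 4 members on chromosome 10, which also carries Avil, with Erbb3 and Egr2, and none of the 4 was called.

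Gfap, an intermediate filament of astrocytes and non-myelinating glia, was 3.07, 3.16, 2.83 and 4.97 CPM in AD1 OE and 8.05, 2.90, 6.45 and 6.86 in Control, where replicate 2 fell among the AD1 OE values. Its log2 fold change of -0.78 (SE 0.27, adjusted p = 0.136) was as large as that of Dhh with a wider interval (-1.38 to -0.18), and it was -0.39 without Control replicates 1 and 4. Aqp4, the water channel of astrocytes and satellite glia, was 11.3, 15.1, 12.2 and 16.8 CPM in AD1 OE and 27.00, 12.5, 16.6 and 22.1 in Control, with a log2 fold change of -0.50 (SE 0.20) that became -0.069 without those libraries. Slc1a3, the glutamate transporter of satellite glia, was 34.3, 31.1, 30.8 and 32.3 CPM in AD1 OE and 46.2, 27.5, 27.2 and 42.1 in Control, tight in AD1 OE and split in Control. Its log2 fold change turned from -0.15 (SE 0.15) to 0.24 without the same libraries. Those were the highest libraries for Gfap, Aqp4 and Slc1a3. Leaving them out was therefore bound to raise the fold changes of these genes. Glul, glutamine synthetase and the classical satellite glial enzyme, was 202 ± 17.2 and 202 ± 16.7 CPM (interval -0.15 to 0.15). Gjc3, a gap junction protein of Schwann cells, was 70.7 ± 13.8 and 65.02 ± 4.41 CPM, a log2 fold change of 0.12 (SE 0.11). Gas7, a cytoskeletal protein that neurons also make, was 29.6 ± 3.10 and 26.4 ± 1.52 CPM (0.16, SE 0.07, adjusted p = 0.265).

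Control replicates 1 and 4 were the highest of all 8 libraries for 4 of these 9 genes and for part of the spinal cord markers. This held for Gfap, Aqp4, Slc1a3 and Fabp5, and with Sox2 for 5 of the 36 members, against 4.8% of all tested genes. It held for 7 of 15 central glial genes and 5 of 8 spinal neuron genes. Olig1, an oligodendrocyte lineage factor absent from Schwann cells, was 0.678, 0.891, 1.53 and 1.40 CPM in AD1 OE and 8.37, 0.903, 1.65 and 3.78 in Control, and Olig2 was 0.339, 0.624, 0.383 and 0.540 in AD1 OE and 3.28, 0.187, 0.472 and 1.30 in Control. The glycine transporter Slc6a5 of inhibitory spinal neurons was 0.407, 0.490, 1.57 and 1.12 in AD1 OE and 5.44, 0.592, 0.629 and 2.88 in Control. For Gad1, which makes GABA, it held narrowly, at 2.76, 2.36, 3.60 and 2.48 in AD1 OE and 3.64, 1.71, 2.36 and 3.73 in Control, where AD1 OE replicate 3 came close to both. It did not hold for Lmx1b, a factor of dorsal spinal neurons, which ranged from 0.648 to 1.198 in AD1 OE and was 0.720, 0.748, 1.89 and 1.47 in Control. Pdgfra, which fibroblasts share with oligodendrocyte precursors, was higher in AD1 OE with no overlap, without passing the test (0.23, SE 0.05, adjusted p = 0.0232). Gja1 and Gjb6, astrocyte gap junction proteins, gave 0.09 (SE 0.07) and 0.09 (SE 0.07). Among the members Gjc3 and Gas7 were highest in AD1 OE replicate 2. The 8 spinal neuron genes read here, chosen with the markers named here after the values were seen, summed to 4.77 to 9.03 CPM in AD1 OE and 4.36 to 16.4 in Control, and 0 of the 7 tested were called (2 at an unadjusted p under 0.05, 0 by DESeq2 or limma-voom). Of 15 central glial genes, 11 were tested and 0 called (4 at an unadjusted p under 0.05, against 18.6% of all tested genes, 0 by DESeq2 or limma-voom). Of the 11, 8 were negative and 3 positive. The summed level of the 15 was 459 ± 21.2 CPM in AD1 OE and 439 ± 35.9 in Control. Gja1, at 234 and 220 CPM, and Pdgfra, at 103 and 88.0, made up most of it. The sum therefore says little of genes at low level such as Olig1 (means 1.13 and 3.68) and Olig2 (0.471 and 1.31). The myelinating oligodendrocyte gene Opalin was at 0 in 6 libraries. The part of spinal cord RNA in the values of the members was not tested.

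**Figure D4:**
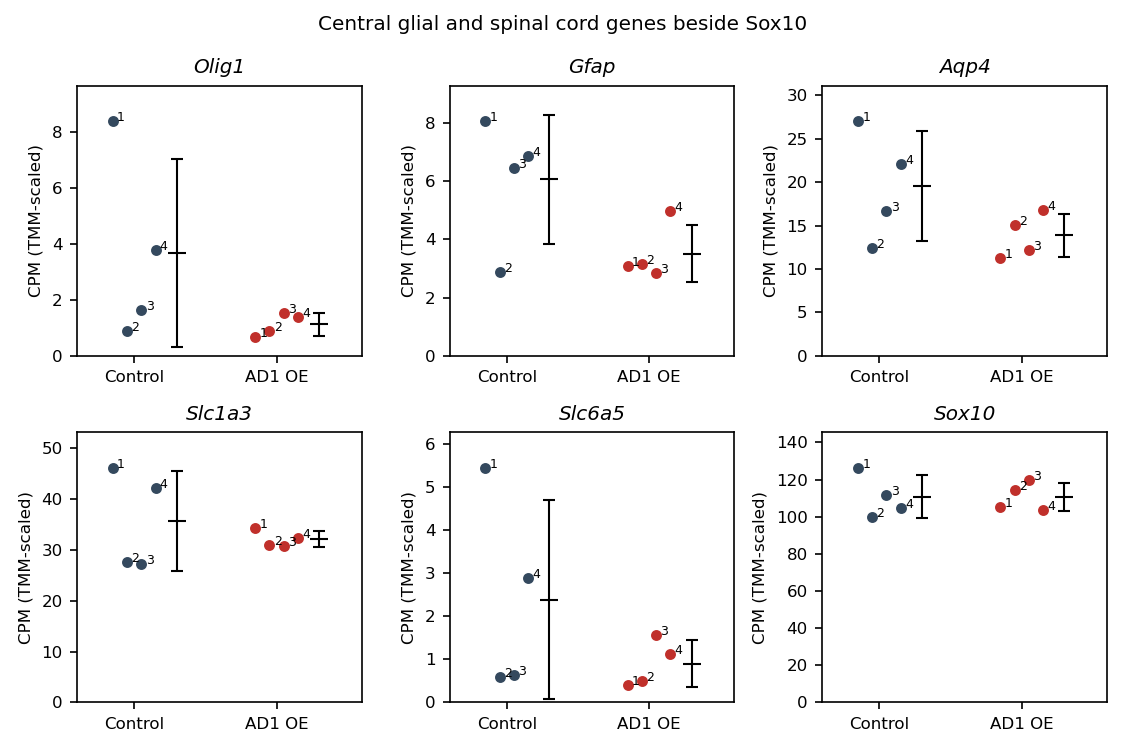
CPM (TMM-scaled, axis from 0) of Olig1, Gfap, Aqp4, Slc1a3, Slc6a5 and Sox10 in each library, with replicate numbers beside the points and bars for the mean ± SD of 4 libraries. Control replicates 1 and 4 are the highest of all 8 libraries for Olig1, Gfap, Aqp4, Slc1a3 and Slc6a5, while Sox10 overlaps between the genotypes.

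The median pooled coefficient of variation between libraries of a genotype was 10.6% over the members against 7.26% over all tested genes. Over all 8 libraries of both genotypes, the highest exceeded the lowest by a median of 2.11 times for the 3 promyelin factors. The median was 2.13 times for the 2 lipid enzymes, against 1.29 times for the 5 lineage factors. Single genes of other groups spread more, such as Ncmap (3.01), Gfap (2.85) and Gjb1 (2.81). AD1 OE replicate 2 was the highest of its group for 21 of the 36 members, against 27.5% of all tested genes, and for 12 of the 15 promyelin, myelin and lipid genes. The exceptions were Drp2, Cadm4 and Mpzl1. Control replicate 1 was the highest of its group for 25 of the 36, against 30.1% of all tested genes, but for 6 of those 15, while Control replicate 4 was highest for 7 of them. These counts describe single libraries, and members measured in the same library are not independent of each other. For the next measure, Pou3f1 and Pou3f2 were taken as early genes, though they are among the 15 above. Both were highest of the AD1 OE libraries in replicate 2. The mean log2 CPM of the myelin and lipid genes minus that of 6 early genes (Sox2, Foxd3, Tfap2a, Pou3f1, Pou3f2, Fabp7) was 1.07 ± 0.18 in AD1 OE and 0.98 ± 0.19 in Control (SD, n = 4). The difference of 0.08 was below the spread between libraries, and leaving out single libraries gave -0.007 (without Control replicate 1) to 0.16 (without AD1 OE replicate 3), with 0.042 without AD1 OE replicate 1, 0.039 without AD1 OE replicate 2 and 0.14 without Control replicate 4.

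**Figure D5:**
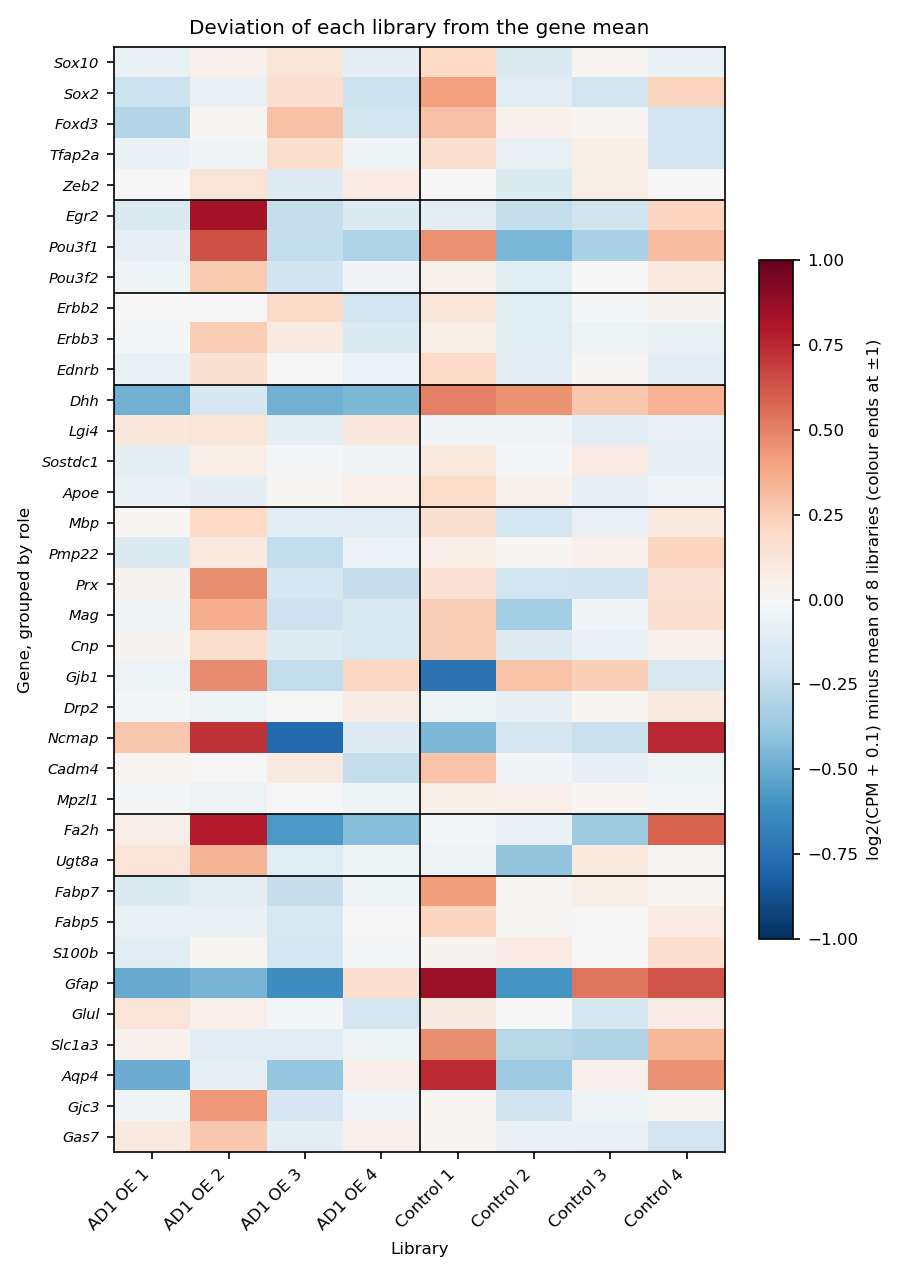
Log2(CPM + 0.1) of each of the 36 glial genes (rows, grouped by role) in each library (columns) minus the mean of the 8 libraries, with red above and blue below that mean. AD1 OE replicate 2 is red across most promyelin and myelin rows, Control replicate 1 across most lineage, immature and satellite rows, and Dhh is the row that splits most clearly by genotype.

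Further genes of these cells and of their signals were read from lists. Of the 29 further glial genes, edgeR called 1, lower (4 at an unadjusted p under 0.05, against 18.6% of all tested genes). Scn7a, a sodium channel-like protein of satellite and non-myelinating glia that sensory neurons also express, was 461, 508, 435 and 529.6 CPM in AD1 OE and 586, 684, 731 and 662 in Control, with no overlap (log2 fold change -0.46, SE 0.08, adjusted p = 0.00276). The call was lost when any 1 of AD1 OE replicates 1, 2 and 3 or Control replicates 2, 3 and 4 was left out, with adjusted p of up to 0.0132, and when libraries were scaled on the further glial genes (adjusted p = 0.0221). The log2 fold change in those fits was -0.41 to -0.48 and -0.45. Ngfr and Adam22 lay higher in AD1 OE with no overlap, without passing the test, at 0.20 (SE 0.05, adjusted p = 0.0542) and 0.18 (SE 0.04, adjusted p = 0.0281). Of the 29 genes, the groups did not overlap for 2 lower and 2 higher in AD1 OE. Among all tested genes the shares were 7.26% and 5.69%. Bcan, a matrix proteoglycan, lay lower with no overlap, at -0.42 (SE 0.11, adjusted p = 0.0494), and DESeq2 called it.

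Of 24 genes of neuregulin signalling and myelin control, 0 were called by edgeR, DESeq2 or limma-voom and 6 had an unadjusted p under 0.05. Over all tested genes, 18.6% had an unadjusted p under 0.05, the share to set beside each list here. The smallest p belonged to Dlg1, a scaffold that limits myelin growth, which lay higher in AD1 OE with no overlap (0.16, SE 0.05, adjusted p = 0.101). Of 20 genes of sterol and fatty acid synthesis, which supply myelin lipids but serve neurons too, 0 were called by any of the 3 tools and 5 had an unadjusted p under 0.05. In the list, 18 of 20 were negative, beside 8765 of 17721 among all tested genes, with a median log2 fold change of -0.08. Genes measured in the same library are not independent of each other, so the signs are not separate results. Summed, the 20 genes were 5367 to 5989 CPM in AD1 OE and 5544 to 6378 in Control, and the ranges overlapped. Lists of other cell types each gave 0 called by edgeR, DESeq2 and limma-voom: boundary cap (6 genes, 0 at an unadjusted p under 0.05), melanocytes (3 tested of 7, 0), pan-neuronal genes (12, 3), fibroblasts and perineurium (10, 4), endothelium (8, 0), macrophages (10, 3), the cell cycle (10, 0) and skeletal muscle (8, 0). The fibroblast and perineurial genes summed to 6956 ± 333 CPM in AD1 OE and 6309.8 ± 487 in Control, and the macrophage genes to 155 ± 13.4 and 169 ± 7.65.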

How the data were processed

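Total RNA of DRG was sequenced as stranded poly(A) libraries. The authors aligned reads to GRCm39 with STAR 2.7.8a and counted them per gene with featureCounts 2.0.1, and deposited raw counts, neither normalized nor filtered, with 1 file per library. Whether counting used the strand was not stated. Groups came from the labelled genotypes.

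Symbols, exon overlaps and transcript lengths came from GENCODE M21 (GRCm38), without coordinates. In R 4.3.3, edgeR 4.0.16 (filterByExpr, TMM, quasi-likelihood F test, genotype only, Benjamini-Hochberg over 17721 genes) used the study's thresholds. Standard errors came from the fit's information and posterior quasi-dispersion. CPM used TMM-scaled totals. Libraries held 22339059 to 44025625 counts, and the common biological coefficient of variation was 8.22%. The code was tested on simulated data.

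Alternatives were DESeq2 1.42.0, limma-voom (limma 3.58.1), other scalings, filters and thresholds, a replicate block, sex, and leaving out libraries. All members were named, with, per list, called genes or that of smallest p, and the 3 most abundant further glial genes; some genes under this rule are not reported here. Members and lists were chosen with earlier results of these data known. The hedgehog, spinal neuron and overlapping genes, the named spinal cord markers, Shh, Bcan and the fit without Control replicates 1 and 4 were chosen after their values were seen.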

Additional observations from a re-analysis of the deposited data

Results flagged for a closer look

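In 8 of the 72 sets of 4 libraries (36 members in each genotype), the highest or lowest library stood apart from its group by Dixon's ratio at the 95% level, which chance meets in about 1 of 20 sets. AD1 OE replicate 2 was the high one for Egr2 (17.2 CPM, the next library 8.78) and for Dhh (35.8, next 29.4), and without it Dhh gave a log2 fold change of -0.87. Control replicate 1 was the high one for Fabp7 (328 CPM, next 255) and Cadm4 (196, next 158). AD1 OE replicate 3, the female library of its group, was high for Tfap2a (7.0 CPM, next 6.06) and low for Lgi4 (18.4, next 20.98). Control replicate 4, the male library of its group, was high for Ncmap (4.26 CPM, next 2.21), and AD1 OE replicate 4 was high for Gfap (4.97, next 3.16). An interaction of sex with genotype was also fitted in edgeR, and Gas7, the member of smallest p, gave 0.38 in log2. AD1 OE held 1 female library and Control 1 male library. The fit therefore cannot show whether the change was alike in both sexes.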

How the results depend on the processing

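Dhh was called in each of the 19 other fits, and was the only member called in 18 of them. At an adjusted p under 0.05 with an absolute log2 fold change over 1, 0 members were called. Without a filter on low counts 3 were, Dhh with Fabp7 (-0.26, adjusted p = 0.00268) and Gfap (-0.77, adjusted p = 0.0019), and the cause was not tested. The 455 calls over all genes became 1161 at an adjusted p under 0.05 with no fold limit, 129 with a fold limit of 1, 283 when scaled on the further glial genes, 747 without a filter, 254 without Control replicates 1 and 4, and 289 to 420 when single libraries were left out. The further glial genes called (1) became 3 and 0 at these 2 thresholds, 2 with DESeq2 (Bcan with Scn7a), 0 when scaled on the list itself, 2 without a filter, and 0 to 1 without single libraries. For sterol and lipid synthesis, 3 genes passed at an adjusted p under 0.05 with no fold limit. Of 683 refitted log2 fold changes of members, 94 had another sign, 83 of them while within 1 SE of 0 in both fits. The other 11 were Sox2 (0.071), Pou3f1 (0.44), Mag (0.19), Cnp (0.088) and Slc1a3 (0.24) without Control replicates 1 and 4, Foxd3 (0.11), Pou3f2 (-0.096) and Ncmap (-0.48) with sex as a term, and Pou3f2, Prx and Gjc3 without AD1 OE replicate 2, where leaving out single libraries gave -0.089 to 0.070, -0.10 to 0.15 and -0.020 to 0.20, the lowest being without that library. Control replicates 1 and 4 were the highest Control libraries for Sox2, Pou3f1, Mag, Cnp and Slc1a3. Leaving them out was therefore bound to raise the values of these genes. Whether equal replicate numbers mark a shared origin was not given, and deviations of same-numbered libraries correlated at -0.0099, -0.054, -0.035 and 0.313; both libraries of a number correlated best with each other for 1 number of 4. With the replicate block 348 genes and 1 member (Dhh, -0.79) were called. No call changed over the members, the further glial genes, the neuregulin and myelin genes or the sterol and lipid genes. The other lists were not read in that fit. Depth limited Gjb1 most, with 6 to 22 counts per library, and the spread between libraries was over 20% (coefficient of variation) for 8 members.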

Other observations

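The boundary cap genes, which mark crest-derived cells at the nerve root entry, held Hey2 at 52.2 to 53.4 CPM in AD1 OE and 50.3 to 51.8 in Control, while Prss56 was 1.40, 1.96, 0.803 and 1.40 CPM in AD1 OE and 0.0450, 2.80, 2.87 and 1.78 in Control, with the lowest level in Control replicate 1. Melanocyte genes, of another crest lineage that shares Sox10 and Ednrb with glia, were near 0 for Dct, Tyr and Mlana (at most 0.178 CPM in each library), although Tyrp1 was 46.6 to 65.6 CPM in AD1 OE and 57.01 to 67.99 in Control. Skeletal muscle genes summed to 136 to 743 CPM in AD1 OE and 167 to 457 in Control. These genes were picked after their values were seen.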
